A study of Mus musculus with 14 samples.

Results

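The 9 genes described here make, break down, carry or sense retinoic acid: *Aldh1a2*, *Cyp26a1*, *Cyp26b1*, *Crabp1*, *Crabp2*, *Rara*, *Rarb*, *Rarg* and *Rxra*. They were taken by name from a table of read counts for 24454 mouse genes and were followed through all 14 RNA-seq libraries of the series. The libraries came from 5 populations of cells sorted from mouse forelimb buds, and the series was made to ask how limb bud mesenchymal progenitors (LMPs) differ from osteochondrogenic progenitors (OCPs) and from early cartilage cells. S9-JAG1+ LMPs lacked SOX9 and carried the Notch ligand JAG1, S9-Pαhi LMPs lacked SOX9 and carried much of the PDGF receptor PDGFRα, and S9+Pαhi OCPs carried SOX9 with much PDGFRα, each with 3 libraries from E10.5. S9+PαhiCol2a1+ chondroblasts had 3 libraries from E11.5, so that every comparison with them is also one of stage, and the myogenic S9-SCA-1+ cells had 2 libraries from E10.5. All embryos carried an EGFP reporter inserted at the *Sox9* locus in a mixed Swiss Albino background, the buds of many embryos were pooled for a sort, and all sorts removed dead cells and cells with the blood, endothelial and epithelial surface proteins CD31, Ter119, CD45, EpCam, Gr1 and CD11b. The study describes the chondroblasts as taken with the gate of the OCPs, SOX9 with much PDGFRα, and as expressing *Col2a1*. The labels tell chondroblasts and OCPs apart by stage and name.

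Retinoic acid is a small signal made from vitamin A. ALDH1A2 carries out the last step of its synthesis in the early embryo, CYP26 enzymes oxidize it to inactive products, and CRABP proteins bind it in the cytoplasm. It acts by binding the nuclear receptors RARα, RARβ and RARγ, which sit on DNA as pairs with an RXR. In the early limb bud retinoic acid is made in the flank and trunk, and *Cyp26b1* in the distal mesenchyme is known to keep the distal bud low in it. The *Meis* genes of the proximal bud are known to respond to it.

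Each library held between 20316583 and 29162751 counted reads (median 25554498), and 3 counts corresponded to 0.101 to 0.149 CPM (counts divided by the scaled library size, the unit of all levels below). Of 8 myogenic markers all had a mean of at least 1 CPM in S9-SCA-1+ cells, where the list summed to 1867 and 1915 CPM, against at most 127 CPM in any other library. Cartilage markers summed to 2393 to 3539 CPM in chondroblasts, to 1541 to 2156 CPM in OCPs and to at most 341 CPM in the other libraries. Distal and posterior limb markers summed to 1973 to 2770 CPM in S9-JAG1+ LMPs against at most 1015 CPM elsewhere. The cartilage list holds *Sox9* and *Col2a1* and the distal and posterior list *Jag1*, by which these populations were sorted or named. These sums are therefore in part set by the sort. Markers of cells outside the mesenchyme were low: endothelial markers summed to at most 15.7 CPM, ectodermal markers to at most 10.8 CPM and neuronal markers to at most 21.1 CPM. Neural crest markers summed to 9.74 to 21.8 CPM in OCPs and 21.3 to 29.3 CPM in chondroblasts, against at most 8.01 CPM elsewhere. Markers of the coelomic lining and flank summed to 11.65 to 42.4 CPM in S9-JAG1+ LMPs, against at most 12.2 CPM elsewhere. Whether such cells add to the levels of the 9 genes was not tested. Blood markers summed to 95.4 CPM in S9-SCA-1+ replicate 2 and to 2638 CPM in replicate 3, against at most 68.6 CPM elsewhere. The values of the 9 genes in both S9-SCA-1+ libraries are given singly below. In no list were all markers at 0 in a population.

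Differences were tested with edgeR over 15125 genes, and all 9 genes passed its filter on low counts. A gene was called where the adjusted p was at most 0.1 and the log2 fold change at least 1.2 in either direction. Both limits were taken over from the study, whose methods do not name an adjustment of P, and the adjusted p was used here. Over all 5 populations 7 of the 9 genes were called as differing, beside 29.2% of all genes tested, and *Rara* and *Rxra* were not because the range of their fitted means was too small. With the limit on the fold removed all 9 passed, but so did 74.8% of all genes. Against the mean of the other 4 populations, S9-SCA-1+ cells had 6 of the 9 genes called, all lower, where 11.3% of all genes were called in that population and 6.80% were called lower. S9-JAG1+ LMPs had 4 called (background 10.6%), with *Cyp26b1* and *Cyp26a1* higher and *Aldh1a2* and *Rarb* lower. S9-Pαhi LMPs had *Crabp1* and *Rarb* called (2 genes, background 3.84%), chondroblasts *Aldh1a2* and *Crabp1* (2 genes, 12.7%), and OCPs *Rarb* (1 gene, 5.01%). The median log2 fold change of the 9 genes in S9-SCA-1+ cells was -1.71, beside -0.01 over all genes tested. Between pairs of populations 38 differences were called over the 10 pairs. S9-JAG1+ LMPs differed from S9-Pαhi LMPs in 3 of the 9 genes (7.00% of all genes), from OCPs in 5 (12.5%), from chondroblasts in 4 (19.4%) and from S9-SCA-1+ cells in 4 (11.4%). S9-Pαhi LMPs differed from OCPs in 2 (4.84%), from chondroblasts in 2 (12.7%) and from S9-SCA-1+ cells in 5, all higher in the LMPs (5.58% of all genes were called higher there). OCPs differed from chondroblasts in 3 (7.77%) and from S9-SCA-1+ cells in 5 (12.8%), and chondroblasts from S9-SCA-1+ cells in 5 (19.4%). Besides those given below, some pair calls were lost without a single library. They were *Cyp26a1* in S9-JAG1+ LMPs against OCPs and S9-SCA-1+ cells, and *Rarb* in S9-JAG1+ LMPs against chondroblasts. Against S9-SCA-1+ cells they were also *Cyp26a1* and *Rarb* in chondroblasts, *Aldh1a2* in S9-Pαhi LMPs and *Crabp1* in OCPs.

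**Figure D1:**
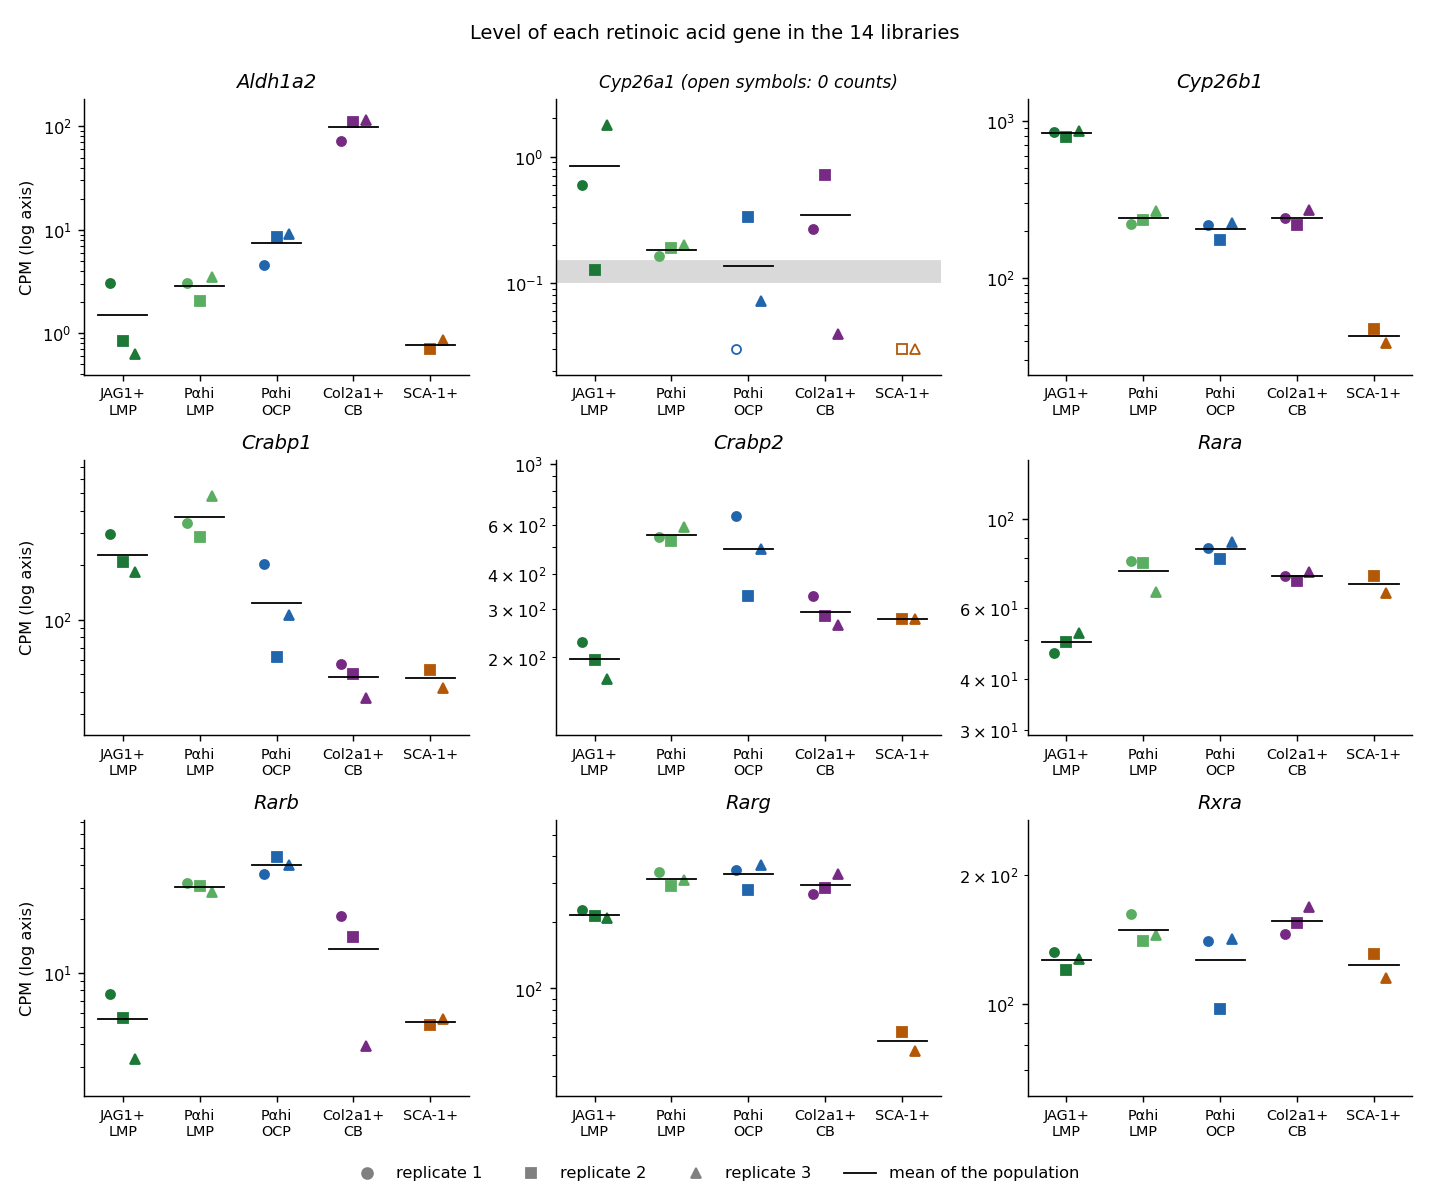
Level of each of the 9 genes in CPM (log axis) in the 14 libraries, 1 symbol a library and the symbol by replicate number, with a line at the mean of each population (LMP, limb mesenchymal progenitors; OCP, osteochondrogenic progenitors; CB, chondroblasts). In the *Cyp26a1* panel the grey band is the level of 3 counts, and open symbols at the foot stand for libraries with 0 counts. *Aldh1a2* is highest in the 3 chondroblast libraries (72.2 to 115 CPM), *Cyp26b1* in the 3 S9-JAG1+ libraries (789 to 862 CPM).

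*Aldh1a2*, which encodes the retinaldehyde dehydrogenase, lies on chromosome 9 (71215789 to 71296243, plus strand, GRCm38). It was read at 72.2, 109 and 115 CPM in the 3 chondroblast libraries and at 4.58, 8.51 and 9.15 CPM in the 3 OCP libraries. S9-Pαhi LMPs had 3.05, 2.03 and 3.54 CPM, S9-JAG1+ LMPs 3.04, 0.838 and 0.634 CPM, and S9-SCA-1+ cells 0.700 and 0.855 CPM. No library of another population came near the chondroblast libraries, and the OCP libraries lay above all LMP libraries. Chondroblasts exceeded the mean of the rest by 5.47 ± 0.26 (SE) on the log2 scale (edgeR adjusted p = 1.74e-09), and their mean was 13.3 times that of OCPs (adjusted p = 8.74e-06). OCPs in turn exceeded S9-Pαhi LMPs by 1.38 ± 0.40 (adjusted p = 0.0354), a call that was lost without OCP replicate 3 (adjusted p = 0.121) or without S9-Pαhi replicate 2 (adjusted p = 0.111). S9-Pαhi and S9-JAG1+ LMPs did not pass a test against each other (adjusted p = 0.187), and neither did S9-JAG1+ LMPs and S9-SCA-1+ cells (adjusted p = 0.323). Against the rest S9-JAG1+ LMPs were lower by 2.09 ± 0.40 on the log2 scale, but this rested on the chondroblast libraries: without the chondroblast libraries the difference was -0.77 with an adjusted p of 0.219. S9-SCA-1+ cells were lower than the rest by 3.26 ± 0.50 (adjusted p = 1.58e-04). Since whole populations were sequenced, a larger share of expressing cells and more RNA per cell cannot be told apart here or below.

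*Cyp26b1* encodes the main retinoic acid-degrading enzyme of the limb bud and lies on chromosome 6 (84571414 to 84593908, minus strand). Its level in the 3 S9-JAG1+ libraries was 851, 789 and 862 CPM. The 9 libraries of S9-Pαhi LMPs, OCPs and chondroblasts lay together between 174 and 270 CPM, and the S9-SCA-1+ libraries at 47.4 and 38.8 CPM. The libraries thus fell into 3 levels with no overlap between them. S9-JAG1+ LMPs exceeded the rest by 2.47 ± 0.08 on the log2 scale (edgeR adjusted p = 4.9e-11), and their mean was 3.44 times that of the next population, the chondroblasts (adjusted p = 3.44e-08). Within the middle level chondroblasts and S9-Pαhi LMPs (242 and 241 CPM on average) did not pass a test against each other (adjusted p = 0.951), nor did S9-Pαhi LMPs and OCPs (205 CPM, adjusted p = 0.195). The lower step was as clear, with OCPs at 4.75 times the mean of S9-SCA-1+ cells (adjusted p = 3.77e-08).

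*Cyp26a1*, the related enzyme of the early embryo and tail bud, lies on chromosome 19 (37697738 to 37701536, plus strand) and was close to the limit of detection. It had 14, 3 and 45 counts in the S9-JAG1+ libraries, 4, 5 and 4 in S9-Pαhi LMPs, 0, 7 and 2 in OCPs, 8, 21 and 1 in chondroblasts, and 0 in both S9-SCA-1+ libraries. Only 8 of the 14 libraries had more than 3 counts. The S9-JAG1+ mean of 0.836 CPM was at least 7.90 times the level that 3 counts would give in an S9-SCA-1+ library, but without S9-JAG1+ replicate 3 the mean was 0.363 CPM and the bound 3.42 times. The call of S9-JAG1+ LMPs against the rest depended on the same replicate: without it the log2 fold change was 2.19 with an adjusted p of 0.124. No 2 neighbours in the order of the 5 populations passed a test, the smallest adjusted p being 0.211. The S9-SCA-1+ cells passed against the rest in edgeR (adjusted p = 0.0585), but leaving out either of their libraries ended the call (adjusted p = 0.207 and 0.215).

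Set against each other per length of exon (RPKM, the CPM divided by the exon length in kilobases), the levels of the degrading and the synthesizing enzyme gave a ratio that differed widely. *Cyp26b1* over *Aldh1a2* was 131, 440 and 634 in the S9-JAG1+ libraries and 33.8, 53.8 and 35.3 in S9-Pαhi LMPs. The ratio was 22.0, 9.56 and 11.4 in OCPs and 1.55, 0.931 and 1.09 in chondroblasts. The E11.5 chondroblasts were thus the only population of the 5 with about as much *Aldh1a2* as *Cyp26b1* per length, and their 3 libraries did not overlap with any other. In S9-SCA-1+ cells, where both genes were low, it was 31.6 and 21.2. Chondroblasts and OCPs differed in *Aldh1a2* (43.6 ± 10.3 and 3.28 ± 1.09 RPKM, SD, n = 3 each) far more than in *Cyp26b1* (49.99 ± 5.40 and 42.2 ± 5.45 RPKM).

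**Figure D2:**
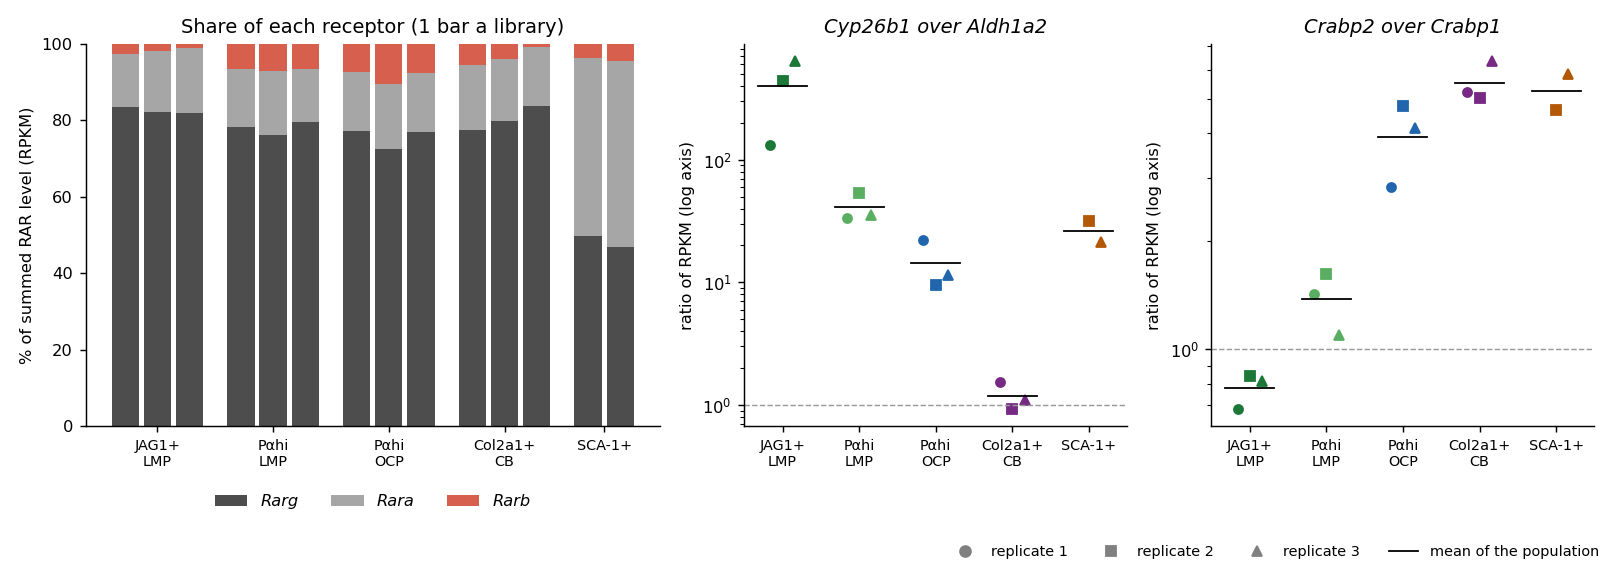
Left, share of *Rarg*, *Rara* and *Rarb* in the summed level of the 3 retinoic acid receptor genes (% of RPKM), 1 bar a library in replicate order. Middle and right, ratio of the RPKM of *Cyp26b1* to *Aldh1a2* and of *Crabp2* to *Crabp1* in each library (log axes, dashed line at a ratio of 1, black line at the mean of the population). The *Cyp26b1* ratio lies between 0.931 and 1.55 in chondroblasts and between 131 and 634 in S9-JAG1+ LMPs.

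The binding proteins differed in where they were high. *Crabp1* (chromosome 9, 54764748 to 54773110, plus strand) was read at 341, 288 and 481 CPM in S9-Pαhi LMPs and at 296, 207 and 184 CPM in S9-JAG1+ LMPs. OCPs had 204, 62.4 and 106 CPM, chondroblasts 57.2, 50.03 and 36.7 CPM, and S9-SCA-1+ cells 52.8 and 42.1 CPM. The level was thus high in both SOX9-negative LMP populations and low in the cartilage and muscle lineages, with OCPs in between and far apart among themselves. S9-Pαhi LMPs exceeded the rest by 2.04 ± 0.24 on the log2 scale (edgeR adjusted p = 6.44e-05), while chondroblasts were lower by 1.64 ± 0.30 (adjusted p = 3.47e-04) and S9-SCA-1+ cells by 1.66 ± 0.36 (adjusted p = 0.00223). S9-JAG1+ LMPs were 1.179 ± 0.25 above the rest, just inside the fold limit (adjusted p = 0.00171). The step from S9-Pαhi LMPs to OCPs was called (1.57 ± 0.34, adjusted p = 0.00778), and so was that from OCPs to chondroblasts (1.37 ± 0.34, adjusted p = 0.00949), though without OCP replicate 1 the second fell to 0.81 with an adjusted p of 0.0456.

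*Crabp2* (chromosome 3, 87948693 to 87953372, plus strand), whose product delivers retinoic acid to the receptors, varied less. S9-Pαhi LMPs had 546, 525 and 592 CPM, OCPs 647, 334 and 492 CPM, chondroblasts 334, 281 and 261 CPM, S9-SCA-1+ cells 275 and 276 CPM, and S9-JAG1+ LMPs 227, 196 and 168 CPM. The S9-JAG1+ libraries were the lowest of the 14. No population was called against the rest, since every difference was inside the fold limit. In pairs, S9-JAG1+ LMPs were called lower than S9-Pαhi LMPs (-1.49 ± 0.19, edgeR adjusted p = 4.87e-05) and lower than OCPs (-1.32 ± 0.18, adjusted p = 6.85e-05), the second only with OCP replicate 1 in the fit (-1.07 without it). Per length *Crabp2* was 0.683, 0.841 and 0.814 times *Crabp1* in S9-JAG1+ LMPs, 1.43, 1.63 and 1.10 times in S9-Pαhi LMPs, 2.83, 4.77 and 4.13 times in OCPs, and 5.20, 5.01 and 6.35 times in chondroblasts. These 4 populations did not overlap in the ratio, and the S9-SCA-1+ libraries (4.64 and 5.83) lay among OCPs and chondroblasts.

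Of the receptors, *Rarb* (chromosome 14, 16430839 to 17082331, minus strand) differed most. It was read at 35.9, 44.7 and 40.04 CPM in OCPs and at 31.7, 30.6 and 28.4 CPM in S9-Pαhi LMPs. S9-JAG1+ LMPs had 7.62, 5.57 and 3.29 CPM and S9-SCA-1+ cells 5.11 and 5.52 CPM. Both populations with much PDGFRα at E10.5 were thus above all S9-JAG1+ and S9-SCA-1+ libraries. The chondroblast libraries were far apart, at 20.8 and 15.9 CPM in replicates 1 and 2 and at 3.93 CPM in replicate 3. Against the rest OCPs were higher by 1.94 ± 0.28 (edgeR adjusted p = 2.36e-04) and S9-Pαhi LMPs by 1.43 ± 0.29 (adjusted p = 0.0049), whereas S9-JAG1+ LMPs were lower by 1.65 ± 0.37 (adjusted p = 0.0024) and S9-SCA-1+ cells by 1.71 ± 0.43 (adjusted p = 0.00646). With the S9-SCA-1+ libraries left out, the S9-Pαhi difference was 1.08, below the fold limit. OCPs and S9-Pαhi LMPs did not pass a test against each other (adjusted p = 0.499). OCPs were called higher than chondroblasts (1.56 ± 0.39, adjusted p = 0.00985), and without chondroblast replicate 3 the difference was 1.15, again under the fold limit (adjusted p = 0.00368).

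The 3′ end of *Rarb* overlaps the 3′ end of *Top2b*, a topoisomerase gene on the other strand. Of the 3108 exon bases of the one *Rarb* transcript that GENCODE vM21 ties to RefSeq entries, 1793 (57.7%) are also *Top2b* exon. Over all 5265 GENCODE exon bases of *Rarb*, 38.4% overlap exons on the other strand. The deposited exon length of *Rarb* is 3776 bases. The sources used here do not say whether reads were counted by strand. *Top2b* was high in all libraries, between 570 and 866 CPM, and reads from the shared stretch can be told apart only by strand. The shared bases are 17.3% of the 10335 exon bases of the *Top2b* transcript tied to RefSeq entries. How many *Top2b* reads the *Rarb* counts hold was not tested. Library by library, *Rarb* fell as low as 3.29 CPM where *Top2b* was at 689 CPM and reached 44.7 CPM where *Top2b* was at 789 CPM. In the chondroblast library with the least *Rarb*, *Top2b* was the highest of the 14. None of the other 8 genes shares exon bases with another gene in this annotation.

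*Rarg* (chromosome 15, 102234938 to 102257522, minus strand) had the highest level per length of the 4 receptor genes in all populations but S9-SCA-1+ cells, with means of 63.8 to 97.2 RPKM against at most 28.5 RPKM for *Rxra*. It was read at 346, 281 and 364 CPM in OCPs, at 337, 292 and 312 CPM in S9-Pαhi LMPs and at 268, 286 and 332 CPM in chondroblasts. S9-JAG1+ LMPs had 227, 213 and 210 CPM, below each of these 9 libraries, and S9-SCA-1+ cells only 63.7 and 52.0 CPM. The S9-SCA-1+ cells were lower than the rest by 2.30 ± 0.13 (edgeR adjusted p = 5.62e-09), and the S9-JAG1+ mean was 3.75 times theirs (adjusted p = 9.43e-08). The step between S9-JAG1+ LMPs and chondroblasts was small in size, 1.36 times on the means, with an adjusted p of 0.0036.

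*Rara* (chromosome 11, 98927800 to 98974942, plus strand) kept within a narrow range. The S9-JAG1+ libraries had 46.5, 49.6 and 52.1 CPM, and all other libraries lay between 65.6 and 87.9 CPM. S9-JAG1+ LMPs were 0.60 ± 0.07 below the rest on the log2 scale (edgeR adjusted p = 1.36e-05), inside the fold limit. S9-SCA-1+ cells, low in *Rarg* and *Rarb*, had 72.3 and 65.6 CPM of *Rara*, 0.01 ± 0.08 from the rest (adjusted p = 0.967). *Rxra* (chromosome 2, 27676445 to 27763319, plus strand), the partner receptor, ranged from 97.3 to 168 CPM, with 131 and 115 CPM in S9-SCA-1+ cells and no call in any comparison, and neighbours in the order of its levels overlapped throughout.

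**Figure D3:**
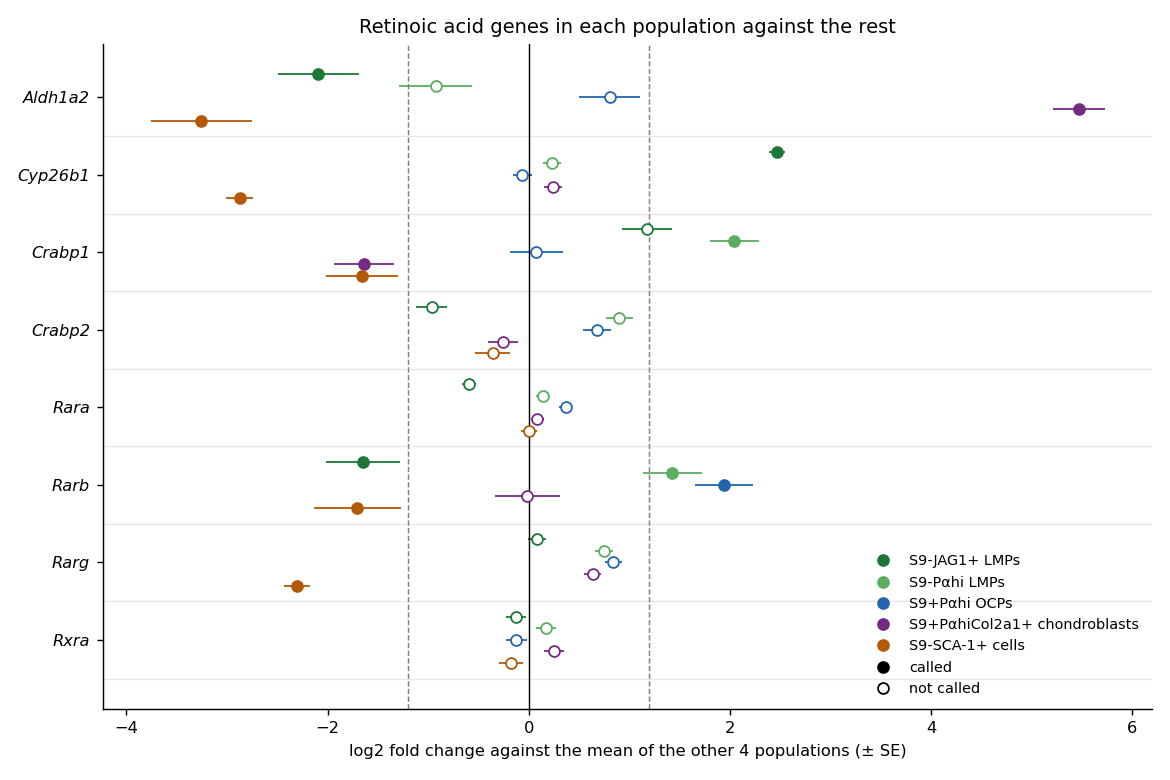
log2 fold change of each population against the mean of the other 4 (± SE), filled where called. Dashed lines mark the fold limit of 1.2, and *Cyp26a1* is left out because its S9-SCA-1+ libraries are at 0. *Aldh1a2* in chondroblasts lies farthest to the right (5.47 ± 0.26) and in S9-SCA-1+ cells farthest to the left (-3.26 ± 0.50), while *Rara* and *Rxra* stay inside the limits in all populations.

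Per length, *Rarg* made up 82.1 to 83.4% of the summed RAR level in S9-JAG1+ LMPs, 76.1 to 79.6% in S9-Pαhi LMPs, 72.6 to 77.2% in OCPs and 77.4 to 83.8% in chondroblasts. In the 2 S9-SCA-1+ libraries *Rarg* and *Rara* were near parity, with *Rarg* at 49.8 and 46.9% and *Rara* at 46.6 and 48.7%. *Rarb* had its highest share in OCPs, 7.22 to 10.4%, and its lowest in S9-JAG1+ LMPs and the third chondroblast library. These shares are bound to each other, as a higher share of the one receptor lowers the others.

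RAR and RXR pairs bind direct repeats of a short core motif, and a repeat with a spacer of 5 bases is the classic retinoic acid response element. The windows from 250 bases before to 50 bases after annotated transcript starts (RefSeq, GRCm38.p6) were searched on both strands for the core motif AGGTCA, and for its variants AGTTCA as well as GGTTCA and likewise GGGTCA, repeated in the same direction with 5 bases between the 2 copies. Of 32851 windows of this length 32 (0.0974%) hold such a repeat, although 43.7% hold at least a single core motif. Repeats with spacers of 1 and 2 bases were searched for as well. They occur in 73 and 88 windows, none of them a window of the genes described here. *Crabp2* has no window in this set and was not searched. Among the 13 windows of the other 8 genes, 2 hold a repeat with 5 bases between the copies. They are shown because the gene for a receptor and the gene for a degrading enzyme are those that carry it. Both repeats consist of the variants AGTTCA and GGTTCA, so these hits depend on which variants were searched for. Whether the repeat is more frequent in these genes than in others was not tested. They are printed 5′ to 3′ on the strand of the gene, 250 bases up to the transcript start, with the repeat in capitals, *Rarb* from chr14:16575477-16575726 (minus strand) and *Cyp26a1* from chr19:37697558-37697807 (plus strand). Both starts lie inside the gene spans given above, that of *Rarb* 506855 bases and that of *Cyp26a1* 70 bases downstream of the outermost start.
Rarb: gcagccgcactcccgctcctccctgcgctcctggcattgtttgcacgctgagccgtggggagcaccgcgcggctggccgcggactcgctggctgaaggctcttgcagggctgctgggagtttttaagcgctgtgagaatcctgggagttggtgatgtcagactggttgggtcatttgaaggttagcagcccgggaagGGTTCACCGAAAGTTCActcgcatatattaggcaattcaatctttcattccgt
Cyp26a1: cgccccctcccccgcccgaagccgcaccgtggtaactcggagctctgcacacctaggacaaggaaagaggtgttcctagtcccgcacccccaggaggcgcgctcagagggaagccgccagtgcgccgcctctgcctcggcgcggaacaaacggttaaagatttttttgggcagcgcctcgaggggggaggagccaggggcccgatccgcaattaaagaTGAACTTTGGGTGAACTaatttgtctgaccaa
The *Rarb* repeat reads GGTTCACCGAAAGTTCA and lies 53 to 37 bases before that transcript start. In *Cyp26a1* it reads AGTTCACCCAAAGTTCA on the opposite strand and lies 32 to 16 bases before its transcript start, so that the capitals show its reverse complement. The match describes letters in a window and does not show binding. *Rarb* was highest in OCPs. *Cyp26a1* had its most counts, 45, in an S9-JAG1+ library, but it was too close to the limit of detection for the patterns to be compared.

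The genes whose level followed *Rarb* most closely over the 14 libraries were *Irx5* (Pearson r = 0.974), *Irx3* (r = 0.971) and *Pkdcc* (r = 0.955). *Irx3* and *Irx5* encode homeodomain factors of the proximal and anterior limb bud. These correlations rest on libraries that share their populations, and they describe likeness of pattern only. *Irx3* was read at 79.7 and 50.4 CPM in chondroblast replicates 1 and 2 and at 5.58 CPM in replicate 3, and *Irx5* at 33.7, 22.3 and 2.20 CPM in the same libraries. The *Meis* genes did the same, with *Meis1* at 55.2, 41.0 and 12.3 CPM and *Meis2* at 115, 86.6 and 15.8 CPM. Chondroblast replicate 3 was low in *Rarb*, *Irx3*, *Irx5*, *Meis1* and *Meis2*, although its *Aldh1a2* (115 CPM), *Rarg* (332 CPM) and *Rara* (73.8 CPM) were the highest of the 3. *Irx3* and *Irx5* were picked because they follow *Rarb* over these same libraries, so their low values there are no separate observation. The *Meis* genes were taken from a fixed list. Among S9-JAG1+ LMPs the library with the least *Rarb* also had the least *Irx3* (9.51 CPM, against 37.0 and 21.8 CPM) and the least *Meis1* (7.25 CPM, against 21.8 and 9.97 CPM).

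**Figure D4:**
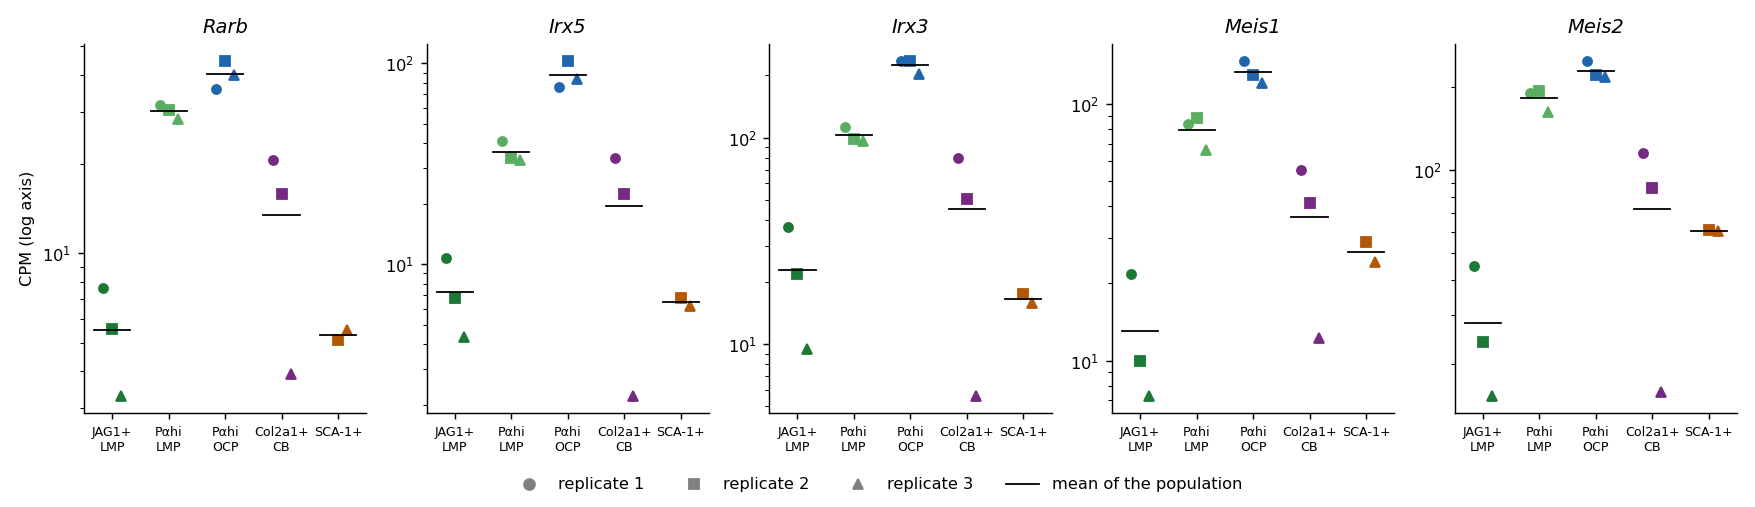
Level of *Rarb* and of *Irx5*, *Irx3*, *Meis1* and *Meis2* in the 14 libraries (CPM, log axes), 1 symbol a library and the symbol by replicate number, with a line at the mean of each population. Chondroblast replicate 3 is the lowest of its population in all 5 panels, at 3.93 CPM for *Rarb* and at 2.20 CPM for *Irx5*. *Irx5* and *Irx3* were picked because they follow *Rarb* over these libraries.

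For the other genes the closest patterns were as follows. *Cyp26b1* was followed by *Sall3* (r = 0.987), *Slit3* (r = 0.981) and *Fgf10* (r = 0.981), the last encoding the FGF that the mesenchyme sends to the apical ridge; *Fgf10* averaged 95.9 ± 6.31 CPM in S9-JAG1+ LMPs (SD, n = 3) and 13.9 ± 0.10 CPM in S9-SCA-1+ cells (n = 2). *Aldh1a2* was followed by *Ugp2* (r = 0.980), *Clec14a* (r = 0.972) and *D630003M21Rik* (r = 0.970). *Clec14a*, known from endothelium, averaged 24.1 ± 6.72 CPM in chondroblasts. The 7 endothelial markers summed to between 3.66 and 3.89 CPM there, and which cells gave the *Clec14a* reads was not tested. *Crabp1* was followed by *Gap43* (r = 0.972), *Cyp1b1* (r = 0.970) and *a*, the agouti gene (r = 0.946). *Cyp1b1*, a cytochrome that can also turn retinol into retinoic acid, averaged 19.9 ± 3.56 CPM in S9-Pαhi LMPs and 2.15 ± 0.15 CPM in chondroblasts. Between these populations *Aldh1a2* went the other way. In S9-SCA-1+ cells both genes had their lowest means, 1.78 CPM for *Cyp1b1* and 0.777 CPM for *Aldh1a2*. *Crabp2* was followed by *Pth1r*, *Ptn* and *Enho* (r = 0.941, 0.935 and 0.925), and *Rarg* by *Bcr*, *Sh3bp5* and *Vasn* (r = 0.984, 0.983 and 0.977). *Rara* was followed by *Ift140*, *Glrb* and *Dcx* (r = 0.962, 0.961 and 0.948), and *Rxra* by *Mboat7*, *Atxn7l3* and *Mbtps1* (r = 0.940, 0.906 and 0.904). *Cyp26a1*, with its few counts, had none above 0.818 (*Gm3411*, then *Def6* and *Svep1*). The genes named for each are the 3 with the highest r of 11877 genes compared over 14 libraries.

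The other genes of the pathway were read from fixed lists. Of 14 genes for uptake, storage and conversion of retinoids 9 passed the filter on low counts. *Stra6*, the membrane receptor for retinol-binding protein, was read at 23.3, 24.2 and 19.6 CPM in S9-JAG1+ LMPs and at 40.5 CPM or more in all other libraries, and S9-JAG1+ LMPs were lower than the rest by 1.73 ± 0.13 (edgeR adjusted p = 2.12e-07). *Dhrs3*, which turns retinaldehyde back into retinol and is known to be induced by retinoic acid, was at 21.4, 24.8 and 22.0 CPM in OCPs and at 17.6, 26.1 and 29.3 CPM in chondroblasts. It was between 7.66 and 8.57 CPM in the 6 LMP libraries and at 3.85 and 3.17 CPM in S9-SCA-1+ cells. *Dhrs3* was thus higher than the rest in OCPs (1.39 ± 0.12, adjusted p = 1.48e-06) and in chondroblasts (1.52 ± 0.12, adjusted p = 1.16e-07) and lower in S9-SCA-1+ cells (-1.97 ± 0.18, adjusted p = 9.09e-07), although without the S9-SCA-1+ libraries both increases were under the fold limit (0.95 and 1.08).

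In S9-JAG1+ LMPs 2 of the 9 genes of this list were called, both lower, where 10.6% of all genes were called either way. They were *Stra6* and *Adh1*, the latter at a mean of 0.069 CPM. The median log2 fold change of the list was -0.52, beside -0.01 over all genes. In S9-Pαhi LMPs *Rbp4* was called lower (-1.44 ± 0.27), as it was in OCPs (-1.48 ± 0.27) together with *Adh1* (edgeR adjusted p = 0.0711, lost without OCP replicate 1 or 2, S9-JAG1+ replicate 1 or 3, or S9-SCA-1+ replicate 2, and without both S9-SCA-1+ libraries). The *Rbp4* calls in both depended on the S9-SCA-1+ libraries in the mean (-0.73 and -0.80 without them). *Rbp4*, the carrier of retinol in blood plasma, averaged 14.5 CPM in S9-SCA-1+ cells and 2.00 CPM in the rest, a log2 fold change of 2.96 ± 0.21 (edgeR adjusted p = 1.01e-07). In chondroblasts 2 were called (12.7% of all genes either way), both higher: *Dhrs3* and *Aldh1a3*, a related dehydrogenase that averaged 1.33 CPM there against 0.0813 CPM in the rest (4.02 ± 0.48, edgeR adjusted p = 7.69e-06). S9-SCA-1+ cells had 2 higher, *Rbp4* and *Adh1*, and 1 lower, *Dhrs3* (11.3% of all genes were called either way). *Rdh10*, the enzyme of the first oxidation of retinol, was called in no population and ranged from 12.1 to 23.2 CPM on the means.

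Of 10 receptor partners, cofactors and other binding proteins all were tested and few moved. None was called in S9-JAG1+ LMPs (10.6% of all genes) or in S9-SCA-1+ cells (11.3%). *Rxrg*, a second partner receptor at low level, was called lower in S9-Pαhi LMPs (-1.83 ± 0.39) and higher in OCPs (1.204 ± 0.29) and chondroblasts (1.88 ± 0.27, edgeR adjusted p = 5.29e-05), where it averaged 2.45 CPM. The OCP call was at the fold limit and was lost when any of 7 libraries was left out. *Fabp5*, which can carry retinoic acid to another nuclear receptor, was lower in chondroblasts (-1.27 ± 0.16, adjusted p = 1.28e-05, and -1.16 when libraries were scaled by their totals alone). *Rxrb*, with population means of 80.8 to 85.2 CPM, was called nowhere.

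Of 10 genes known to respond to retinoic acid in embryos 9 were tested, and the list is of mixed direction. *Stra6* and *Dhrs3* also stand in the list for uptake, storage and conversion, so their calls count in both lists. In OCPs 4 were called, all higher, where 5.01% of all genes were called either way. The median was 1.39, beside 0.02 over all genes. The 4 were *Tgm2* (2.54 ± 0.34), *Meis1* (2.07 ± 0.30), *Meis2* (1.73 ± 0.35) and *Dhrs3*. *Meis1* and *Meis2* encode homeodomain factors of the proximal limb and *Tgm2* a transglutaminase. In S9-JAG1+ LMPs 4 were lower and 2, *Hoxb1* and *Cdx1*, higher (10.6% of all genes), with *Tgm2* at -3.25 ± 0.56, *Meis1* at -2.12 ± 0.39 and *Meis2* at -2.05 ± 0.45. In S9-Pαhi LMPs 3 were higher and 1 lower (3.84% of all genes), with *Meis2* at 1.32 ± 0.36 (a call lost without S9-Pαhi replicate 1) and *Tgm2* at -2.22 ± 0.52. Chondroblasts, with 12.7% of all genes called, had 2 higher, *Dhrs3* and *Tgm2* (1.495 ± 0.36), and 1 lower, *Cdx1* (-3.56 ± 0.46), a homeobox gene of the posterior embryo. In chondroblasts, the population with the most *Aldh1a2*, *Rarb*, *Meis1* and *Meis2* were not called against the rest (-0.01 ± 0.32, -0.27 ± 0.34 and -0.34 ± 0.39). S9-SCA-1+ cells had 3 higher and 1 lower (11.3% of all genes), and *Tgm2* there rested on 1 library (0.18 without S9-SCA-1+ replicate 3). It had 0.874 CPM in replicate 2 and 3.35 CPM in replicate 3, the library with the more blood markers, whose part in this was not tested. *Hoxb1* was called higher in both LMP populations, but it had 0 counts in the chondroblast and S9-SCA-1+ libraries, and in S9-JAG1+ LMPs it was seen in replicate 3 alone (2.10 CPM). Its S9-Pαhi call (edgeR adjusted p = 0.061) was lost without any one of the S9-Pαhi libraries (adjusted p from 0.112 to 0.168), without the S9-SCA-1+ libraries (0.111), without the chondroblast libraries (0.191) and in the DESeq2 Wald test (0.144).

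**Figure D5:**
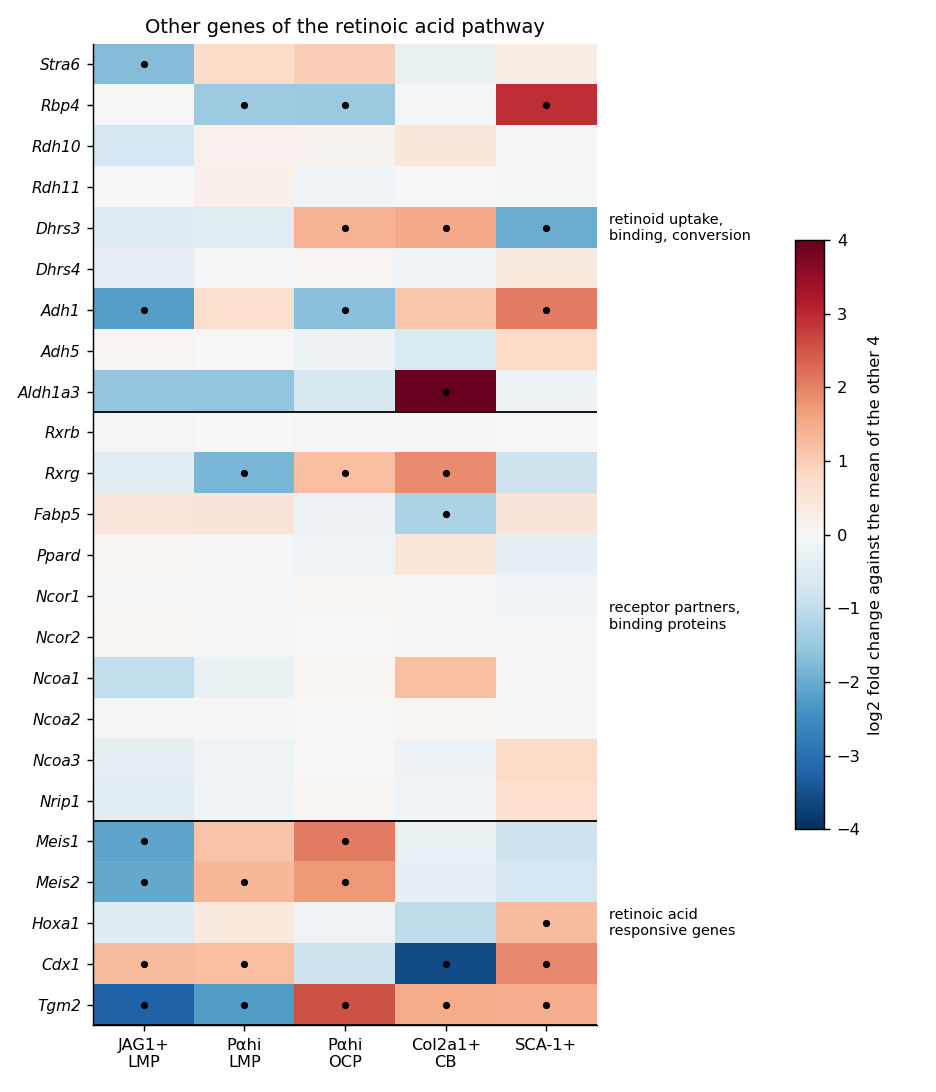
log2 fold change against the mean of the other 4 populations for 24 of the 25 listed pathway genes that passed the filter on low counts, by list, with a dot where called. *Hoxb1* is left out because 2 populations are at 0 for it. *Meis1*, *Meis2* and *Tgm2* are blue in S9-JAG1+ LMPs (-2.12, -2.05 and -3.25) and red in OCPs (2.07, 1.73 and 2.54).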

How the data were processed

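Whole-number read counts per gene, deposited by the authors without normalization, were used for all 14 libraries. Per the study's methods, single-end reads of poly(A)+ RNA were aligned with STAR to mm10 and counted with qCount where a read starts in a RefSeq exon; use of strand is not given in the sources used here. Of 24454 Entrez identifiers 24374 were matched to symbols. In R 4.3.3, edgeR 4.0.16 kept 15125 genes (filterByExpr), scaled totals by TMM and fitted a mean for each population (quasi-likelihood F test, Benjamini-Hochberg adjustment over all genes). Tests set a population against the average of the other 4 on the log2 scale, against each other population singly, and all 5 jointly. SEs are those the F statistic implies. CPM used the scaled totals, and RPKM the deposited exon lengths. DESeq2 1.42.0 was an alternative, and the fit was tested on simulated counts. The labels do not say whether replicates came from separate sorts, so p-values measure the spread between libraries, which exceeded counting noise in every population (chi-square per degree of freedom 7.8 to 76.3). The 9 genes, the pathway and marker lists and the tests were chosen with earlier results of these data known. Named list genes are up to 3 called with the largest fold in each comparison, and likeness genes the 3 with the highest r among genes with a mean log2 CPM of at least 1 (prior count 2); *Rdh10*, *Rxrb*, *Top2b*, and *Meis2* and *Cdx1* in S9-JAG1+ LMPs, were named after their values were seen. A further gene of the retinoid list is not reported here.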

Additional observations from a re-analysis of the deposited data

How the results depend on the processing

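Of 81 called log2 fold changes, 1766 values under other settings were compared: 1701 kept direction and call, 64 kept direction but lost the call, and 1 reversed, *Hoxb1* in S9-JAG1+ LMPs (-3.15 without S9-JAG1+ replicate 3, the only library of that population with counts, up to 4.64 without another). DESeq2 size factors, library totals, no filter on low counts and the DESeq2 Wald test left each count of called genes within 1.5 times. With an adjusted p of at most 0.05 and no limit on the fold change, the counts of the 9 genes called against the rest were 7 in S9-JAG1+ LMPs (beside 42.3% of all genes under that rule), 4 in S9-Pαhi LMPs (11.3%), 4 in OCPs (21.3%) and 5 in chondroblasts (58.9%). With the chondroblast libraries left out OCPs had 2 (7.50% of all genes). Leaving out single libraries gave 4 to 5, 2 to 2, 1 to 1, 2 to 3 and 5 to 6 calls in S9-JAG1+ LMPs, S9-Pαhi LMPs, OCPs, chondroblasts and S9-SCA-1+ cells, 33 to 41 calls over the 10 pairs (38 with all libraries) and 6 to 7 genes in the joint test. Of the 9 genes only *Aldh1a2*, *Rarb* and *Cyp26a1* lost a call against the rest when libraries were left out, and their values stand beside the results.

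The replicate numbers were not used as pairs: over 26 same-number pairs of libraries the correlation of deviations ran from -0.181 to 0.308, and 4 were over 0.1. With the replicate number as a block 37 pair calls were made in place of 38, counts against the rest were 4, 2, 1, 2 and 6 as before, and 2 pair calls fell under the fold limit, *Crabp1* (1.10) and *Rarb* (1.08) against S9-SCA-1+ cells. Genes near 3 counts, *Cyp26a1* above all, are limited by depth.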
